A study of Mus musculus with 4 samples.

Results

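The genes described here are 46 regulators of chromatin, chosen by name for their functions, with earlier results of these data known. The regions are those that the authors' table of reproducible pSTAT3 binding regions lists beside them. The table names 30 of the 46 genes (65.2%), against 42.5% of 21887 protein-coding genes, and lists 74 of its 12925 regions beside them, each beside only 1 of the 46. STAT3 is a transcription factor that binds DNA once a tyrosine near its end is phosphorylated, and sites of this form (pSTAT3) were found with chromatin immunoprecipitation followed by sequencing (ChIP-seq). The cells were primary cortical oligodendrocyte progenitors of C57BL/6 mice, kept dividing with the growth factors PDGF-AA, at 10 ng/ml, and bFGF, at 20 ng/ml. All of them received 100 ng/ml CNTF, a cytokine that signals through the gp130 receptor and JAK kinases, for 15 min. The 2 libraries made with the pSTAT3 antibody are replicates 1 and 2, and 2 input libraries were not analysed here. No unstimulated cells were used here, so binding cannot be set against a state without CNTF. Lysed cells were pooled before sonication and no label states that the ChIP libraries came from separate cultures, so their spread measures these libraries only and can be technical. Peak lists do not measure expression, so the labelled cell type was not checked against its markers.

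Chromatin regulators write, erase and read chemical marks on histones and DNA, or move nucleosomes along DNA. Histone acetyltransferases and deacetylases set the acetylation that accompanies active genes, Polycomb enzymes and DNA methyltransferases lay down marks that accompany silent genes, and BAF and CHD complexes use ATP to reposition nucleosomes. In oligodendrocyte progenitors, histone deacetylases, Polycomb proteins, the BAF ATPase encoded by Smarca4 and the remodellers encoded by Chd7 and Chd8 are known to take part in the step from dividing progenitor to myelinating cell.

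Each value below comes from the peak that overlaps the region in each replicate's own list and has the highest fold there. The pileup counts the fragments that cover the peak summit. The fold enrichment is the value that the authors' peak caller gave for the pileup relative to local background, which is not their plain quotient. Replicate 1 had 42189 peaks and replicate 2 had 26649, and the lowest background in them was 4.72 and 2.91 fragments. Replicate 1 gave the higher fold in 72 of the 74 regions, and in 95.1% of all 12925 regions. The median pileup of the 74 regions was 63 fragments in replicate 1 and 30.5 in replicate 2, beside 68 and 33 over all regions. Their median fold enrichment was 10.5 and 7.65, beside 10.4 and 7.51, and their median width was 493 bp, beside 504 bp. The summits of the replicates lay a median of 17 bp apart, and within 50 bp in 63 of the 74. In height, width and alignment, the medians of the regions beside chromatin regulators were close to those of all regions.

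**Figure D1:**
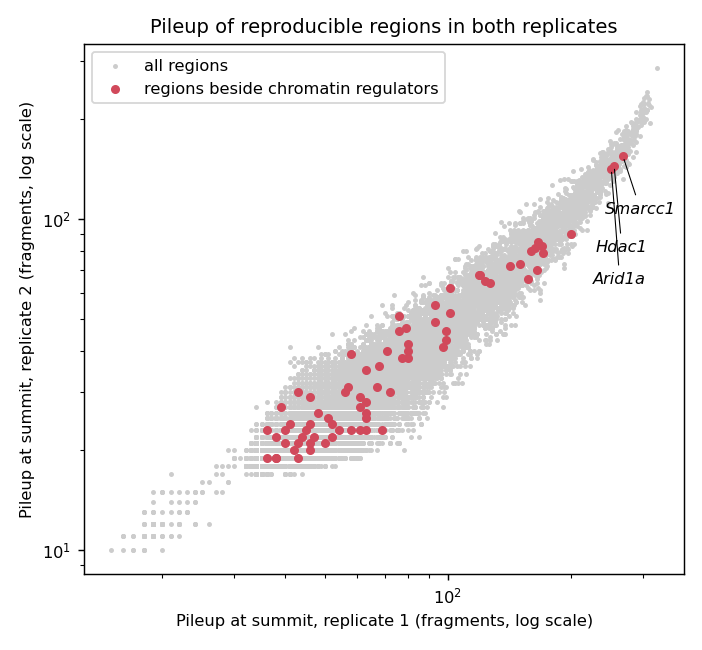
Pileup at the summit (fragments, log scales) in replicate 1 (x axis) and replicate 2 (y axis) for all 12925 reproducible regions (grey) and the 74 listed beside chromatin regulators (red). The red points run along the same band as the grey ones, from 36 to 268 fragments in replicate 1, with regions listed beside Smarcc1, Hdac1 and Arid1a at the upper end.

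Chromatin regulator genes carried a region near a start more often than protein-coding genes at large. A region midpoint lay within 5 kb of a listed transcript start in 16 of the 46 genes (34.8%), against 18.1% of 21887 protein-coding genes. These 16 were Hdac4, Hdac7, Dnmt3a, Tet3, Ezh2, Kdm2b, Kdm6b, Kmt2a, Setdb1, Ehmt2, Smarca2, Smarcc1, Arid1a, Chd3, Chd7 and Kat2b. Within 25 kb there were 26 genes (56.5%), against 34.4% of protein-coding genes, and within 1 kb there were 13 (28.3%), against 12.8%. A further 4 genes, Arid1b, Eed, Kdm5b and Smarcc2, were listed with regions only over 25 kb away. The other 16, which were Hdac2, Hdac3, Hdac9, Hdac11, Sirt1, Tet2, Ezh1, Bmi1, Kdm1a, Kdm4c, Ehmt1, Chd8, Ep300, Crebbp, Kat2a and Kat6a, are not named in the table. The table lists 4 or more regions beside 6 of the genes (13.0%), against 4.17% of protein-coding genes. These shares are given as a description, with no test. When regions were limited to those above the median by the lower fold of both replicates, 10 of the 46 genes had one within 5 kb, against 9.86% of protein-coding genes.

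**Figure D2:**
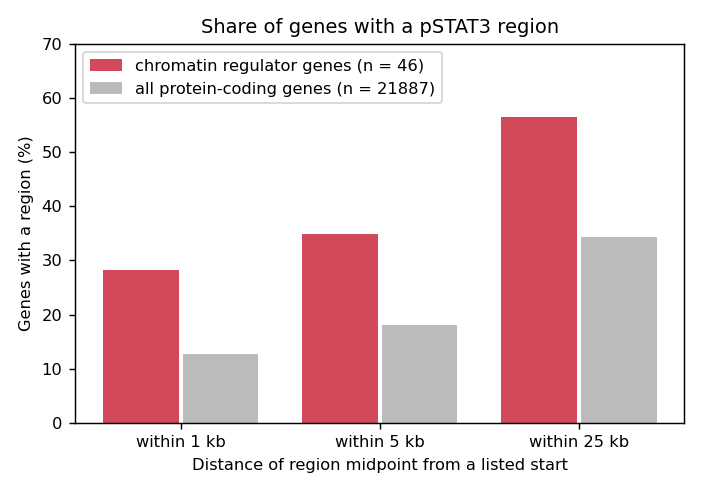
Share of genes (%) with a reproducible region whose midpoint lies within 1, 5 or 25 kb of a listed start, for the 46 chromatin regulator genes (red) and all 21887 protein-coding genes (grey). The red bars stand at 28.3%, 34.8% and 56.5%, the grey ones at 12.8%, 18.1% and 34.4%.

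Gene length moved with these shares. The chromatin regulators had a median gene length of 56.3 kb, against 17.2 kb for all protein-coding genes, and 26 of the 46 were in the longest of 4 equal classes of gene length. In that class, 12 of the 26 (46.2%) had a region within 5 kb, against 25.3% of all genes of the class. In the next class, 3 of 17 (17.6%) had one, against 19.1%. The 16 genes with a region within 5 kb had a median length of 86.4 kb and the other 30 one of 41.7 kb. The part of gene length in the difference was not tested.

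Within 5 kb, the strongest region of each of the 16 genes by the lower fold ranged from 5.81-fold to 29.2-fold in replicate 1 and from 4.70-fold to 22.0-fold in replicate 2. The median of the lower fold of both replicates was 7.94, as it was for all protein-coding genes with such a region. Hdac4 and Hdac7 stood at the top and Setdb1 and Smarcc1 at the bottom. Between neighbours in this order the ranges of both replicates overlapped in 12 of 15 pairs, while within replicates 9 of the 15 had the same order in both. Among the 12 highest the widths ran from 246 bp at Kmt2a to 1023 bp at Chd7. For scale, the strongest region of the series, listed beside Stat3 itself, had 57.0-fold and 73.5-fold enrichment.

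**Figure D3:**
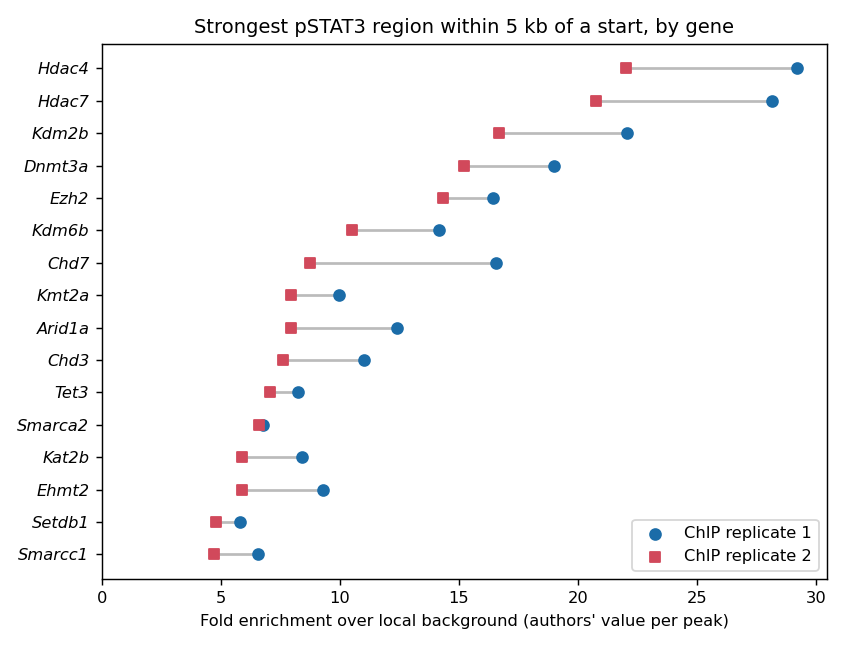
Fold enrichment over local background of the strongest region within 5 kb of a start for each of the 16 genes, in replicate 1 (circles) and replicate 2 (squares), ordered by the lower value. Hdac4 (29.2 and 22.0) and Hdac7 (28.2 and 20.7) stand at the top, and the lowest 8 stay at or below 12.4 in replicate 1.

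Among histone deacetylases, which remove acetyl groups from histones and other proteins, Hdac4 and Hdac7 had the highest regions within 5 kb of a start. Both encode class IIa deacetylases, which shuttle between cytoplasm and nucleus and bind MEF2 factors. The Hdac4 (ENSMUSG00000026313) region at chromosome 1, 92180172 to 92181027, stacked 166 fragments in replicate 1 and 85 in replicate 2, for 29.2-fold and 22.0-fold enrichment. Its midpoint lay 258 bp upstream of a listed start and inside the longest RefSeq gene model, 15.1 kb from that model's 5′ end. The Hdac7 (ENSMUSG00000022475) region at chromosome 15, 97831609 to 97832133, stacked 160 and 80 fragments, for 28.2-fold and 20.7-fold, 104 bp upstream of a listed start. Hdac4 was slightly higher than Hdac7 in both replicates, by less than the gap between replicates. Both regions wholly cover a promoter window of the RefSeq promoter table (GRCm38.p6), 250 bases before to 50 after a start. The windows are shown because they lie under the highest regions within 5 kb, at chr1:92180292-92180591 (minus strand) and chr15:97831718-97832017 (minus strand). Capitals mark the STAT site pattern TTCNNNGAA, which reads the same on both strands:
Hdac4: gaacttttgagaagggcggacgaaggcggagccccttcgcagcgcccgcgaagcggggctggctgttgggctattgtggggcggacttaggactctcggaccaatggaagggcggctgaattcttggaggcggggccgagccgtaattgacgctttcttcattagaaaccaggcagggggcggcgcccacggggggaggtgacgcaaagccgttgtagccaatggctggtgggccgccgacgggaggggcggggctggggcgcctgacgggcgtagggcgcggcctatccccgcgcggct
Hdac7: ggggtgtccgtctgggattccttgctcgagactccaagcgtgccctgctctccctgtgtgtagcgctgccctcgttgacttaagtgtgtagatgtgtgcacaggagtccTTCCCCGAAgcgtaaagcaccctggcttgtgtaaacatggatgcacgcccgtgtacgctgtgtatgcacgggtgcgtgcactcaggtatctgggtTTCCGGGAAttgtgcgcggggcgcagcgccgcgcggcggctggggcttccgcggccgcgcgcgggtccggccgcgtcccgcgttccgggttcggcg
The Hdac7 window holds 2 copies of the pattern. The copy TTCCGGGAA is centred 42 bp upstream of the start, 19 bp from the replicate 1 summit and 28 bp from that of replicate 2. The other copy, TTCCCCGAA, is centred 137 bp upstream, 76 and 67 bp from the summits. At Hdac4, the pattern does not occur in these letters, and the summits lay 142 and 96 bp upstream of the start.

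Hdac4 had 3 further regions inside the gene. The one 11.1 kb from a listed start stacked 157 and 66 fragments, for 24.5-fold and 15.4-fold enrichment, and was close to the promoter region in height. Those at 12.7 kb and 77.4 kb had 8.19-fold and 6.14-fold, and 14.9-fold and 9.16-fold. Hdac1, which with Hdac2 forms the catalytic core of several corepressor complexes, was listed beside the highest region of the 74 by fold. It covered chromosome 4, 129510774 to 129512039, with 255 and 145 fragments and 44.2-fold and 36.9-fold enrichment, and ranked 94 of the 12925 regions by the lower fold. It lay past the 3′ end of Hdac1 and 6.11 kb from a listed Hdac1 start inside the gene, and the start of Marcksl1 was nearer, at 2.17 kb. The regions 12 kb (20.9-fold and 17.5-fold) and 14.0 kb (7.59-fold and 4.58-fold) upstream of Hdac1 lay nearer to starts of Lck. Hdac1 thus had no region within 5 kb, and each of its 3 regions was nearer to another gene. Hdac5 had a single region 15.1 kb upstream, with 63 and 35 fragments and 9.53-fold and 8.45-fold. In all, 2 of the 9 deacetylase genes had a region within 5 kb and 4 within 25 kb.

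Of the genes that add or oxidise DNA methylation, Dnmt3a and Tet3 had a region within 5 kb. In both cases the nearest listed start was internal and over 1 kb away. Dnmt3a (ENSMUSG00000020661) encodes a de novo methyltransferase. Its region at chromosome 12, 3887506 to 3888330, stacked 142 and 72 fragments, for 18.99-fold and 15.2-fold, 2.47 kb downstream of a listed start and 86.4 kb inside the gene. The other de novo enzyme gene, Dnmt3b, had no region that near, and its region 16.7 kb upstream (123 and 65 fragments, 20.9-fold and 16.4-fold) lay 5 bp from a start of Commd7. Dnmt1, the maintenance methyltransferase, had a region inside the gene 8.16 kb from a start, with 119 and 68 fragments and 21.0-fold and 12.9-fold. The replicate summits of that region lay 582 bp apart, the farthest of the 74. A region 12.7 kb upstream of Dnmt1, of 79 and 47 fragments and 14.0-fold and 12.3-fold, lay nearer to a start of S1pr2. Among the TET dioxygenases, which oxidise methylated cytosine, Tet3 had a region at chromosome 6, 83443470 to 83443774, 1.94 kb upstream of a listed start, with 61 and 29 fragments and 8.23-fold and 7.04-fold. Tet1 was listed with a region of 12.4-fold and 9.79-fold at 22.9 kb, 1.32 kb from a start of Slc25a16, and Tet2 with none.

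Among Polycomb genes, Ezh2 had a reproducible region at its promoter and the genes of its partners did not. Ezh2 (ENSMUSG00000029687) encodes the histone methyltransferase of the complex that also contains Suz12 and Eed. Its region at chromosome 6, 47594967 to 47595677, spans a listed start, with the midpoint 19 bp downstream of it. It stacked 93 and 55 fragments, for 16.4-fold and 14.3-fold enrichment, with the replicate summits 5 bp apart. The region wholly covers the RefSeq promoter window of Ezh2 at chr6:47594981-47595280 (minus strand), shown for comparison with the deacetylase promoters:
Ezh2: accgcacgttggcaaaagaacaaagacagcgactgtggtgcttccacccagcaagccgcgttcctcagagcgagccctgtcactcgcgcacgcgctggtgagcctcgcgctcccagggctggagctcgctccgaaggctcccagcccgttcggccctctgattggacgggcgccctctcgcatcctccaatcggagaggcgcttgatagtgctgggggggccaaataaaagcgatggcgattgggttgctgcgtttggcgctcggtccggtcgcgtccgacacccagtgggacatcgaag
No copy of TTCNNNGAA occurs in these letters, and both summits lay just before the window, 301 and 296 bp upstream of its start site. Suz12 was listed with a region 18.6 kb upstream (38 and 19 fragments, 6.30-fold and 4.70-fold), which is at the low end of the table. Eed had a pair of regions 48.4 and 49.3 kb upstream, of 5.98-fold and 4.58-fold and of 6.53-fold and 4.93-fold. At its own start Eed had a peak in each replicate's list, of 7.35-fold and 4.17-fold, that was not among the reproducible regions. Ezh1, the paralog of Ezh2, and Bmi1, a core component of the other Polycomb complex, were not listed.

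Kdm2b and Kdm6b were the histone demethylase genes with a region within 5 kb. Kdm2b (ENSMUSG00000029475) encodes a protein that binds unmethylated CpG DNA and recruits Polycomb proteins. It had 3 regions within 5 kb, of which a pair was similar in height. The one at chromosome 5, 123019782 to 123020277, stacked 165 and 70 fragments, for 22.0-fold and 16.7-fold, 4.95 kb upstream of a listed start and so just inside the limit. The other, of 171 and 79 fragments and 24.2-fold and 16.5-fold, lay 206 bp from the same start. Both are outside the RefSeq model of Kdm2b, and a start of Orai1, a calcium channel gene, was nearer to each, at 4.69 kb and 200 bp. A lower one, of 40 and 23 fragments and 7.17-fold and 6.14-fold, lay 19 bp from a start inside the gene. Kdm6b (ENSMUSG00000018476) encodes a demethylase that removes the Polycomb mark. Its regions lay 4.16 kb upstream (chromosome 11, 69417437 to 69418237, 80 and 40 fragments, 14.2-fold and 10.5-fold) and 3.64 kb downstream (77 and 38 fragments, 12.6-fold and 9.16-fold) of a listed start, both inside the RefSeq gene. The latter spans 1684 bp, the widest of the 74. Kdm5b was listed with a region 28.6 kb away that lay nearer to Syt2.

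Of 5 histone methyltransferase genes outside the Polycomb group, Kmt2a, Setdb1 and Ehmt2 had a region within 5 kb, all of moderate or low height. Kmt2a (ENSMUSG00000002028), which encodes an enzyme that methylates histones at active promoters, had a region 180 bp upstream of a start at chromosome 9, 44881354 to 44881599. It stacked 56 and 30 fragments, for 9.97-fold and 7.94-fold. Ehmt2, which encodes a methyltransferase of silent chromatin, had 52 and 22 fragments and 9.27-fold and 5.89-fold 307 bp downstream of a listed start, with both summits at the same base. Setdb1, which encodes a methyltransferase that silences retroelements, had 38 and 22 fragments and 5.81-fold and 4.79-fold 130 bp upstream of its start. A higher region was listed beside Setdb1 at 41.3 kb (170 and 83 fragments, 28.2-fold and 20.4-fold), and it lay 517 bp from a start of Cers2, a ceramide synthase gene. Kmt2d had a region of 10.3-fold and 10.2-fold 23.2 kb upstream, nearer to Dhh.

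All 7 BAF complex genes were listed beside a region, with 23 of the 74 regions between them, and 3 had one within 5 kb. Arid1a (ENSMUSG00000007880), which encodes a DNA-binding subunit, had 6 regions, of which 3 lay within 1 kb of a start. These 3 were lower than the highest region of the gene, with 72 and 30 fragments and 12.4-fold and 7.94-fold at 478 bp, on chromosome 4, 133754264 to 133754657, 61 and 23 (5.34-fold and 4.56-fold) at 107 bp, and 46 and 21 (6.999-fold and 4.69-fold) at 805 bp upstream. The highest region of Arid1a lay inside the gene at chromosome 4, 133729322 to 133730550. It stacked 251 and 142 fragments, for 27.5-fold and 29.8-fold, and was 26.8 kb from the RefSeq 5′ end and 6.06 kb upstream of an internal listed start. A region past the 3′ end, of 28.7-fold and 21.2-fold, lay nearer to a start of Pigv, at 7.32 kb. The region over the Arid1a start wholly covers its RefSeq promoter window at chr4:133756720-133757019 (minus strand), which is shown as the promoter under the lowest of the regions that cover a whole window:
Arid1a: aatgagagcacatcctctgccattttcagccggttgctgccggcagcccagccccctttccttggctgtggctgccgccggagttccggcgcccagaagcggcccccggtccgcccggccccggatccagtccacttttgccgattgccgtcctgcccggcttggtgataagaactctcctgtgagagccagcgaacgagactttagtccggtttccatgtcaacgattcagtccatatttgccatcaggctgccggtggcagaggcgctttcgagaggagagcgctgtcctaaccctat
This window has no copy of TTCNNNGAA either. Smarcc1 (ENSMUSG00000032481), a core scaffold subunit, had the region of highest pileup among the 74. It lay at chromosome 9, 110205498 to 110206519, 74 kb inside the gene, with 268 and 155 fragments, 34.5-fold and 29.2-fold enrichment and summits 2 bp apart. A start of Cspg5 was nearer to it, at 37.8 kb. The Smarcc1 start itself had 43 and 19 fragments and 6.55-fold and 4.70-fold at 26 bp. In Arid1a and Smarcc1 the region inside the gene was thus higher than that at the start in both replicates.

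Smarca2, one of the pair of BAF ATPase genes, had a region of 39 and 27 fragments and 6.78-fold and 6.57-fold at chromosome 19, 26748764 to 26749112, 479 bp from an internal start 144 kb into the gene. Regions 96.3 kb (19.1-fold and 16.6-fold) and 138 kb (13.5-fold and 13.3-fold) upstream were higher. Smarca4, the other ATPase gene, had a region of 8.64-fold and 6.66-fold 23.3 kb upstream, which lay 35 bp from a start of Yipf2. Arid1b had a region of 26.4-fold and 18.9-fold 86.1 kb upstream (150 and 73 fragments, summits 3 bp apart). No other protein-coding gene was listed beside it. Smarcd3 had a region of 17.2-fold and 15.0-fold inside the gene, 13.2 kb from a listed start, and lower ones 17.3 kb away (5.92-fold, then 4.50-fold in replicate 2) and 18.4 kb away (8.22-fold, then 5.38-fold). Smarcc2 was listed only with one of 5.51-fold and 4.70-fold at 39.5 kb, which lay 79 bp from a start of Myl6b.

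Chd3 and Chd7 had a region within 5 kb among the genes of CHD remodellers, which slide or evict nucleosomes. Chd7 (ENSMUSG00000041235) had 7 regions, the most of any of the 46 genes, of which 6 lay inside it. The highest, at chromosome 4, 8750414 to 8751436, stacked 97 and 41 fragments, for 16.5-fold and 8.75-fold, 513 bp upstream of an internal start 60.5 kb from the 5′ end. Near the 5′ end, 1.46 kb downstream of a listed start, Chd7 had 63 and 25 fragments and 11.2-fold and 6.66-fold. The other 5 ranged from 6.47-fold to 10.3-fold in replicate 1 and from 5.14-fold to 6.52-fold in replicate 2. Chd3, which encodes an ATPase of the NuRD deacetylase complex, had regions of 10.99-fold and 7.62-fold (67 and 31 fragments) and of 9.10-fold and 6.66-fold (51 and 25 fragments) 373 bp and 1.75 kb upstream of a listed start. The higher of these lay at chromosome 11, 69364902 to 69365402. Chd4, the other NuRD ATPase gene, was listed beside 3 regions 12.1 to 35.0 kb away, and each lay nearer to a start of Nop2 or Iffo1. The one at 12.1 kb, 61 bp from Nop2, had 41 and 24 fragments and 7.35-fold and 6.40-fold. Those at 29.5 and 35.0 kb had 200 and 90 fragments with 21.9-fold and 17.0-fold, and 80 and 42 fragments with 14.2-fold and 11.01-fold.

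Of the 5 acetyltransferase genes, Kat2b alone was listed. Its region of 47 and 22 fragments, with 8.397-fold and 5.89-fold enrichment, lay 420 bp from an internal start 93.0 kb into the gene. A second one at 30.0 kb was 104 bp from a start of Sgo1. Ep300 and Crebbp, which encode the large coactivator acetyltransferases that STAT proteins are known to bind, Kat2a and Kat6a were not listed.

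**Figure D4:**
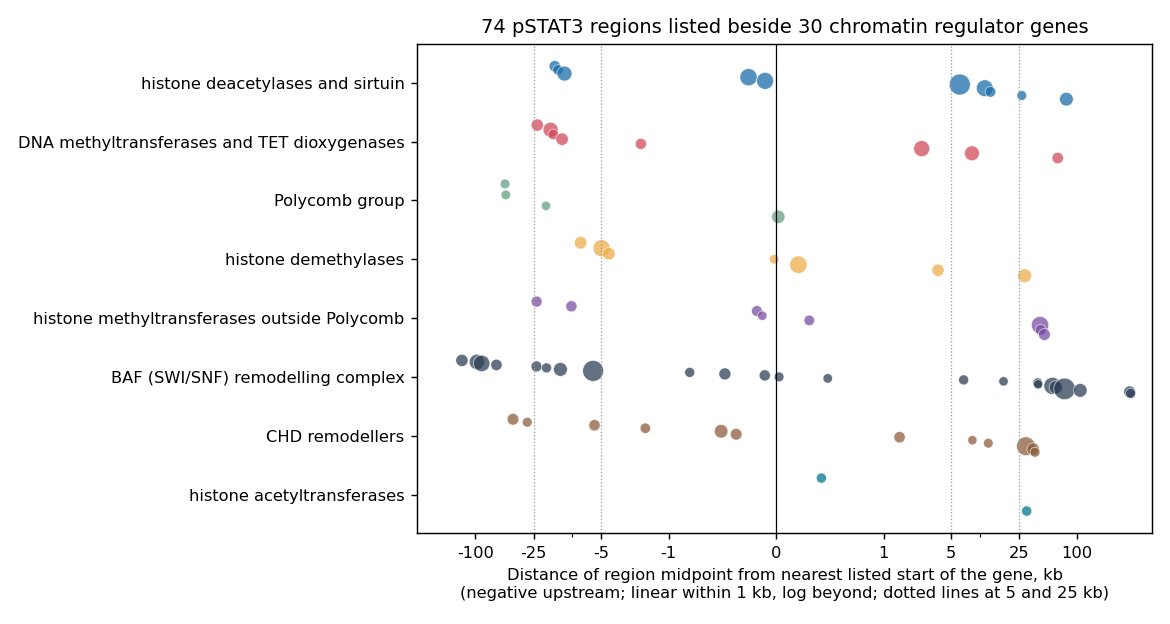
Distance (kb, negative upstream; linear within 1 kb and log beyond) of the midpoint of each of the 74 regions from the nearest listed start of its gene, by functional group. Point area grows with the replicate 1 pileup and the offset within a row only separates points; 16 regions lie within 1 kb of a start and 27 over 25 kb away, and the BAF row holds 23.

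The place of the regions was compared with that of all pairs of a region and a protein-coding gene in the table. Of the 74 regions, 16 (21.6%) lay within 1 kb of a start, 7 (9.46%) at 1 to 5 kb, 24 (32.4%) at 5 to 25 kb and 27 (36.5%) farther away. Over 17443 pairs in all, the shares were 17.3%, 10.7%, 40.7% and 31.4%. By the RefSeq gene models, 33 of the 74 lay inside the gene, 23 upstream and 18 downstream. This split is not given over all pairs and is a description only. The regions just inside the 5 kb limit were those of Kdm2b at 4.95 kb and Kdm6b at 4.16 kb, and those just outside were a Chd7 region at 5.86 kb, the high Arid1a region at 6.06 kb and the Hdac1 region at 6.11 kb. Hdac1 alone of these genes had nothing nearer.

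Many of the starts with a region lay within the gene and not at its outer 5′ end. Of the 16 regions within 1 kb of a start, 9 lay inside the RefSeq gene over 1 kb from its 5′ end (56.2%), against 25.9% of 3013 such pairs over all protein-coding genes and 40.2% of those in the longest class of genes. These 9 were the regions named above in Hdac4, Hdac7, Kdm2b, Ehmt2, Arid1a, Smarca2, Chd3, Chd7 and Kat2b, 1 in each gene. The outer start carried 6 regions, in Ezh2, Kmt2a, Setdb1, Smarcc1 and Arid1a, and the last of the 16 is the Kdm2b region beside Orai1. The RefSeq promoter table holds windows for 7 of the 9 genes, and in 4 of them, Hdac4, Hdac7, Kdm2b and Arid1a, a RefSeq start lay within 1 kb of the region too. Peak lists do not show which starts are used in these cells. This comparison was added after the values were seen.

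The strongest of the regions lay at starts about as often as strong regions at large. Of the 74, 8 (10.8%) were among the strongest 10% of all regions, with a lower fold of 18 or more. They were the promoter regions of Hdac4 and Hdac7 and 6 regions over 5 kb from a start, beside Hdac1, Smarcc1, Arid1a (which had 2), Setdb1 and Arid1b. Of the 51 regions over 5 kb from a start, 24 lay nearer to a start of another protein-coding gene, and 11 of these were within 1 kb of it. Of the 23 within 5 kb, 2 lay nearer to another gene, both of them the Kdm2b regions beside Orai1. The share over 5 kb away was 75% of the 8, beside 68.9% of the 74 regions, and over all protein-coding genes it was 73.2% of 1732 pairs with such a strong region and 72.1% of all pairs. Of the 6 strong distal regions, 4 were nearer to another gene, beside Hdac1, Smarcc1, Arid1a and Setdb1. For the counts of regions nearer to another gene, no share over all pairs is given, so they are a description only. A region listed beside a gene is not shown to act on that gene.

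**Figure D5:**
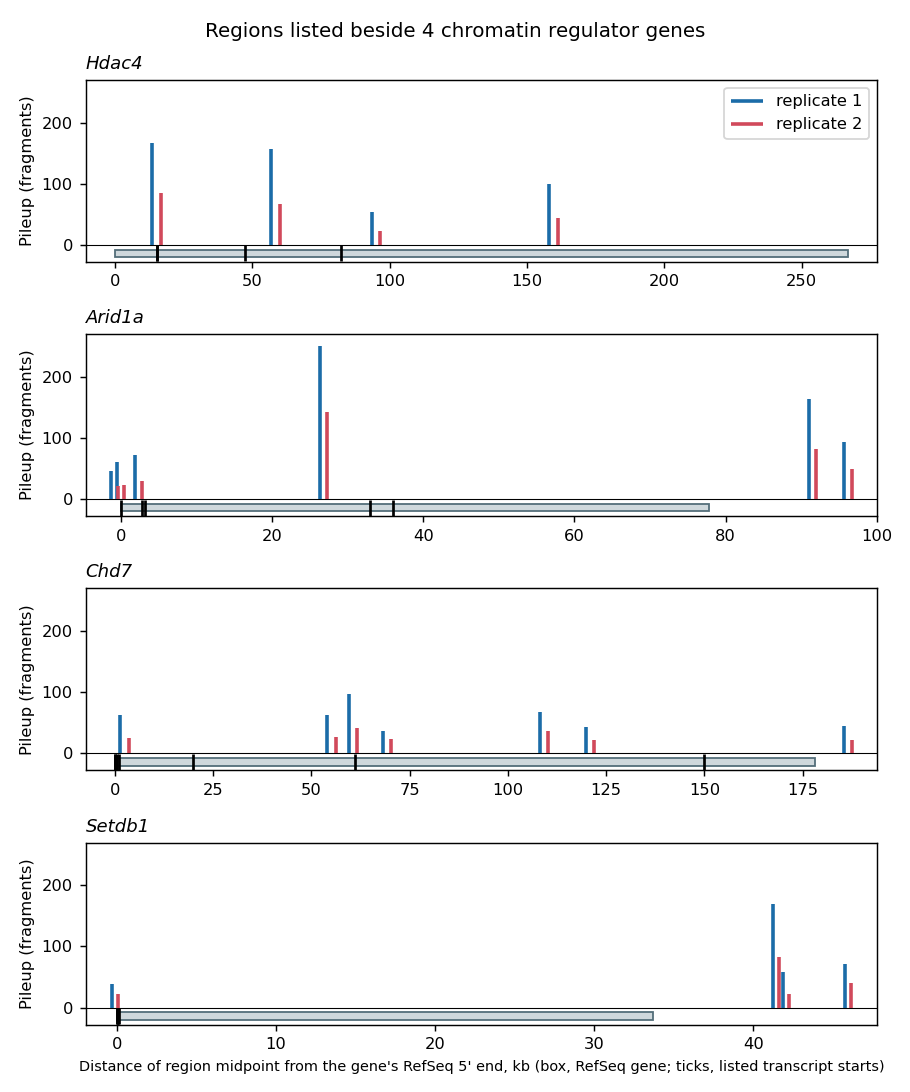
Pileup (fragments) in replicate 1 (blue) and replicate 2 (red) of the regions listed beside Hdac4, Arid1a, Chd7 and Setdb1, plotted by distance (kb) from the RefSeq 5′ end; paired lines are set slightly apart for legibility, boxes are the RefSeq genes and ticks the listed starts. In Hdac4 the region at an internal start is the highest (166 and 85), in Arid1a one inside the gene (251 and 142), and in Setdb1 one past its 3′ end (170 and 83).

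Related genes were set side by side. Of 14 pairs of paralogs, 12 had a region within 5 kb at exactly one gene, none at both, and 2, Hdac1 with Hdac2 and Ep300 with Crebbp, at neither. The gene with the region was the first in each of Hdac4 and Hdac5, Hdac7 and Hdac9, Dnmt3a and Dnmt3b, Ezh2 and Ezh1, Ehmt2 and Ehmt1, Kmt2a and Kmt2d, Smarca2 and Smarca4, Smarcc1 and Smarcc2, Arid1a and Arid1b, Chd3 and Chd4, Chd7 and Chd8, and Kat2b and Kat2a. The class IIa deacetylases can be paired in other ways, and no share over other pairs of genes is given, so the count is a description only. In 5 of the 12 pairs the gene with no region near a start, which was Hdac5, Dnmt3b, Kmt2d, Smarca4 or Chd4, had one at 5 to 25 kb, and in 2, Smarcc2 and Arid1b, one farther away. Those of Dnmt3b, Kmt2d, Smarca4, Chd4 and Smarcc2 lay nearer to a start of another gene. Hdac5, Dnmt3b, Kmt2d, Smarcc2, Chd4 and Chd8 also had low peaks within 5 kb of a RefSeq start in both replicates' own lists. Hdac9, Ezh1, Ehmt1, Smarca4, Arid1b and Kat2a did not. Counted from either end of the RefSeq gene, Hdac4, Hdac7, Dnmt3a, Smarca2 and Kat2b had no region within 5 kb. Hdac1, Chd4 and Arid1b then had one, near the 3′ end. By this count Chd3 with Chd4 and Arid1a with Arid1b thus had a region at both genes.

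Genes without a reproducible region near a start often had low peaks there in the replicates' own lists. Of the 30 genes, 12 (40.0%) had a peak outside the region table, with its summit within 5 kb of a RefSeq start, in both lists, against 15.4% of 17928 protein-coding genes without a region within 5 kb. A further 14 had such a peak in 1 list only (46.7%, against 20.2%), 13 of them in replicate 1 and 1, Hdac11, in replicate 2. No peak was listed in either for Sirt1, Ezh1, Suz12 and Crebbp. The highest was at Chd8, with 54 fragments and 9.62-fold in replicate 1, 86 bp from the start, but 17 fragments and 4.23-fold in replicate 2. Eed had 41 and 19 fragments and 7.35-fold and 4.17-fold, and Dnmt3b had 40 and 16 and 7.17-fold and 4.35-fold. Kdm1a, which encodes a demethylase, had 29 and 18 fragments and 4.47-fold and 4.86-fold. Across the 12 genes the folds ran from 3.71 to 9.62 in replicate 1 and from 2.92 to 4.86 in replicate 2, below the median of reproducible regions in both replicates. None of the 12 kept a peak in both lists at a -log10 q of at least 10. Peaks of the replicates were not required to overlap, so a gene with peaks in both lists need not have them at the same site. At Smarcc2 the highest lay 714 bp from a start in replicate 1 and 3500 bp in replicate 2.

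Of a list of 79 other chromatin regulators, outside the 46, 27 (34.2%) had a region within 5 kb and 44 (55.7%) within 25 kb. Over all protein-coding genes the shares were 18.1% and 34.4%. The list was also chosen with earlier results of these data known, so it is no independent check on the 46. The strongest were at Phc1, a Polycomb gene (197 and 114 fragments, 34.6-fold and 29.4-fold, 102 bp from a start), and Gatad2a, a NuRD gene (124 and 74 fragments, 21.9-fold and 19.2-fold, 179 bp). Next came Asxl1 (170 and 91 fragments, 27.6-fold and 17.2-fold, 174 bp) and Brd2, which encodes a reader of acetylated histones (118 and 68 fragments, 17.7-fold and 16.1-fold, 429 bp). The Phc1 region was higher than any within 5 kb of the 46 genes in both replicates.

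STAT site patterns in the promoters were counted beside those in all promoters, with no test. The RefSeq table holds 56 promoter windows for 40 of the 46 genes, with none for Chd3, Chd7, Hdac1, Hdac3, Kat6a and Kdm6b. Of the 56 windows, 4 lay wholly and 6 partly inside a region, so most of those searched were not at a reproducible region. TTCNNNGAA was in 3 windows of 2 genes, Hdac7 and Kmt2d, and in 8.3% of all 32851 windows. The stricter TTCCNGGAA, which it contains, was in the Hdac7 window shown above alone and in 1.15% of all windows, and 0.457% of all windows hold 2 or more copies of TTCNNNGAA. The Hdac7 window with 2 copies lies wholly inside a region, while another Hdac7 window, with TTCCCTGAA, and the Kmt2d window, with TTCATGGAA, lie outside any. The pattern CACGTG, the E-box bound by basic helix-loop-helix factors, was in 7 of the 56 windows, of 6 genes (Bmi1, Dnmt3a, Ehmt2, Hdac5, Kdm4c and Sirt1), and in 7.15% of all windows. Regions outside these windows could not be searched, since no genome sequence was used here.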

How the data were processed

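pSTAT3 ChIP-seq peaks of 2 libraries were analysed, all in GRCm38.p3 coordinates per the submitters' processing notes, which also name CASAVA 1.8, Bowtie2 and MACS2. Per the file headers, each replicate's peak list gives the pileup signal at the summit (fragments, not scaled for depth) and the fold enrichment ratio over local background, as the authors' peak caller deposited them. A further column of the deposited lists, whose header is damaged, holds -log10 q by its values. The authors' region table lists 12925 regions found in both replicates, with a p-value column, by its deposited title an irreproducible discovery rate, of at most 0.05. Its columns headed pileup and fold enrichment were not used as such, since they are equal to each other in all 12925 rows and match the mean -log10 p of the replicates' deposited peaks within 0.1% in 12378. Which input library served as background, and the calling options, are not given in the sources used here. Read totals are not in the peak lists, so the depth is unknown and no counting interval is given. The lists can hold several summits in a region, and every value is therefore that of the highest-fold peak overlapping it by at least 1 bp.

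Distances ran from the region midpoint to the nearest transcript start that the table lists for the gene, with the sign by strand. Gene lengths and 5′ ends came from the RefSeq gene table, and promoter windows (250 bases before to 50 after a start) from the RefSeq promoter table, both GRCm38.p6, a later patch of the same assembly. Promoter rows matched 40 of the 46 genes by symbol. The tallies were tested on simulated data. Python 3.11.15 with numpy 2.4.6, pandas 2.3.3 and matplotlib 3.10.9 was used.

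The design has 1 condition, so there was no contrast to test, and counts are set beside the same counts over all protein-coding genes. The members and lists were chosen with earlier results of these data known. Every gene with a region within 5 kb is named, the 12 with the highest lower fold with full values, those with a region only at 5 to 25 kb with distance and values, and the 4 strongest of the other regulators. In all, 14 alternative settings were run. The 2 input libraries were not analysed here. A result that needs a withheld item is not reported here.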

Additional observations from a re-analysis of the deposited data

How the results depend on the processing

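No paired analysis was possible because the shared numbers join ChIP and input libraries, the inputs were not analysed here, and no result comes from a test. With a single replicate's peak list, which drops both the other replicate and the reproducibility limit, 29 to 41 of the 46 genes had a summit within 5 kb, 36 to 46 had one within 25 kb, and 48 to 66 of the 79 other regulators had one within 5 kb. The background rose too, to 33% without replicate 1 and 47.2% without replicate 2 for 5 kb, and to 53% and 66.1% for 25 kb. The median lower fold of the 74 regions was 7.65, and the median fold was 7.65 by replicate 2 alone and 10.5 by replicate 1 alone. The match with replicate 2 was set in advance, since replicate 1 had the higher fold in 72 of the 74. With only the regions above the median fold, 10 of the 46 genes and 15 of the 79 other regulators had one within 5 kb, and Ehmt2, Kat2b, Setdb1, Smarca2, Smarcc1 and Tet3 had none. With -log10 q of at least 10, the genes with peaks in both lists but no region fell from 12 to 0. An irreproducible discovery rate of at most 0.01 left 13 genes (background 14.8%), without Setdb1, Smarca2 and Smarcc1. Counting from either end of the RefSeq gene also gave 13 (background 19.3%), but with 9 of the 16. A window of 1 kb in place of 5 kb gave 13 genes (background 12.8%). The other settings gave 15 to 16 genes within 5 kb. Those with RefSeq starts added and with no other gene nearer were chosen after seeing the data. Read depth is unknown, so what it limits was not tested.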
